A study of Mus musculus with 12 samples.

Results

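The Acot cluster is a row of 6 genes for type I acyl-CoA thioesterases, Acot1 to Acot6, whose rows were taken by symbol from the 12 deposited count tables. The cluster was selected on its measured read counts in these libraries, the diet difference in the livers included, so the values of its members are a description. All 6 were among the 24062 genes listed. The libraries came from livers of MYC-ON mice and from HCC53N xenografts, each from mice kept for 21 days on a control diet (named complete in the labels) or on the same kind of diet without tryptophan (No-Trp), with 3 mice and 1 library per mouse in each of the 4 groups. MYC-ON livers are from male FVB mice with LAP-tTA and TRE-MYC, in which a transactivator made in the liver turns on a MYC transgene of the Y chromosome once doxycycline (1 mg/mL for the breeders) is withdrawn at birth, so both liver diet groups overexpress MYC. The paper describes the sequenced MYC-ON livers as bearing tumors. By histology it reports fewer and smaller tumors in MYC-ON livers on the No-Trp diet. The liver diet groups may thus differ in tumor content as well as in diet. The tumor content of each sequenced liver was not given in the sources used here. HCC53N is 1 line of cells from a mouse liver tumor without p53 and with mutant NRAS. It was grown subcutaneously in female NOD SCID mice, which have no mature T and B cells. The labels give these tumor cells as FVB MYC ON, and whether they carry a MYC transgene was not settled here. The growth protocol in the labels gives an age of 45 days for males compared with wild type, and the age of the diet groups was not given in the sources used here. The control livers are from mice 101, 102 and 103, the No-Trp livers from mice 105, 107 and 108, the control xenografts from mice 40, 41 and 43, and the No-Trp xenografts from mice 35, 36 and 37.

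Acyl-CoA thioesterases cut an acyl-CoA into a free fatty acid and coenzyme A, and so set how much activated fatty acid a compartment holds and how much free coenzyme A is left for other reactions. The members of the cluster have closely related sequences and work in different places. Acot1 is the cytosolic enzyme for long-chain acyl-CoAs, Acot2 its mitochondrial counterpart, and Acot3, Acot4, Acot5 and Acot6 are peroxisomal, with Acot3 acting on long-chain acyl-CoAs, Acot4 on succinyl-CoA and other dicarboxylic acyl-CoAs, Acot5 on medium-chain acyl-CoAs and Acot6 on branched-chain ones. In mouse liver the cluster is known as a target of PPARA, the nuclear receptor that turns on fatty acid oxidation in fasting.

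The 6 genes lie on the plus strand of chromosome 12 in the order Acot2, Acot1, Acot4, Acot3, Acot5 and Acot6, between positions 83987861 and 84111349 of GRCm38, a span of 123489 bp (GENCODE M21). Acot2 runs from 83987861 to 83993873, Acot1 from 84009490 to 84018371, Acot4 from 84038379 to 84048601, Acot3 from 84052144 to 84060402, Acot5 from 84069325 to 84076020 and Acot6 from 84100654 to 84111349. The coding sequences of Acot1 and Acot2 were 86.1% identical, those of Acot3 and Acot5 84.2%, and the least alike pair, Acot2 and Acot4, 69.5%. For Acot1, 12.39% of all stretches of 150 bases in its transcript were also found in a transcript of another gene, which was Acot2, Acot3 or Acot5. The share was 10.21% for Acot2, 2.74% for Acot3, 3.36% for Acot5, 0.31% for Acot6 and 0% for Acot4. Transcripts of Gm49366, a readthrough gene that overlaps Acot3 and Acot4, were left out of this search. The deposited tables list reads aligned to several places apart from the genes, so reads that fit several genes equally are not part of the counts. By these shares, Acot1 and Acot2 are the members most open to a loss of such reads. Acot3 and Acot4 also overlap a readthrough transcript on their own strand (Gm49366) and an antisense transcript (4732463B04Rik), neither of which was a row of the tables, and the strand setting of the counting was not given in the sources used here.

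The promoters of the 4 most abundant members are shown because these members went different ways on the No-Trp diet. Each is the plus strand from 250 bases before to 50 bases after the start of the transcript, 300 bases in all, from RefSeq on GRCm38.p6, with matches to the searched motifs in capitals.
Acot1 (chr12:84009252-84009551): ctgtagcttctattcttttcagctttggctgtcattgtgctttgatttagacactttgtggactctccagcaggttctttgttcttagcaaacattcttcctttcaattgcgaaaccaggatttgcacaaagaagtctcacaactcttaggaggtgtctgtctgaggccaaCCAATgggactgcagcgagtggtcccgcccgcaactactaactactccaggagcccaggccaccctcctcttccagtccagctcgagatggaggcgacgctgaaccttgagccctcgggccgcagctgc
Acot2 (chr12:83987611-83987910): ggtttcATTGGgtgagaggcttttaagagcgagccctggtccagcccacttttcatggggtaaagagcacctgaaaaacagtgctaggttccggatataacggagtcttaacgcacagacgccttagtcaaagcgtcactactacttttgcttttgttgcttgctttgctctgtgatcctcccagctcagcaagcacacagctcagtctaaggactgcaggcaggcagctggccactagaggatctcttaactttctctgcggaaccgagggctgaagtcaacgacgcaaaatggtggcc
Acot3 (chr12:84051894-84052193): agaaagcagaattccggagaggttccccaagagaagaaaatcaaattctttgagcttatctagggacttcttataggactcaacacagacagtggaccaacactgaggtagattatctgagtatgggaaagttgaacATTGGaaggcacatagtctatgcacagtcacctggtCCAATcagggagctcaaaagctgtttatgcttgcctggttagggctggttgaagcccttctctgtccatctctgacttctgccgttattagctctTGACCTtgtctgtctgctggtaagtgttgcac
Acot4 (chr12:84038129-84038428): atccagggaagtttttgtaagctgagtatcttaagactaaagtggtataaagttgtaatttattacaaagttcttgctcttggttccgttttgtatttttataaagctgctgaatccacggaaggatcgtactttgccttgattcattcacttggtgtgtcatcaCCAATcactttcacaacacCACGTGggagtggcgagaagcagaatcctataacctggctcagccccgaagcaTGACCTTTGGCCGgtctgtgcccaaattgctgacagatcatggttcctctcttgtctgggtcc
The motifs searched on both strands were the direct repeat AGGTCANAGGTCA to which PPARA binds with RXR, with at most 2 mismatches, its single element AGGTCA, the E-box CACGTG to which MYC binds with MAX, and CCAAT. Acot4 was the 1 promoter of the 4 with a match to the direct repeat, TGACCTTTGGCCG on the minus strand, beginning at -13 relative to the start of the transcript and with 2 mismatches, and a full AGGTCA, read as TGACCT, is part of that match. Such a match was found in 3.84% of 27025 promoter windows of the same length. Acot4 also held CACGTG at -66, a motif in 7.09% of the windows. AGGTCA alone was found in 16.2% of the windows, and Acot3 had it on the minus strand at 19. CCAAT was found in 37.8% of the windows and in all 4 promoters, at -79 in Acot1, -244 in Acot2, -113 and -77 in Acot3 and -85 in Acot4. Acot3 had 2 promoter windows, and only the 1 with the lower start coordinate was searched and is shown. The absence of a match says only that these letters are not in these windows.

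Reads counted on genes ranged from 14660963 to 26085349 per library. The summed level of 8 hepatocyte markers was 8280 to 38500 CPM (counts scaled to library size with TMM factors) in the control livers, 47300 to 122000 CPM in the No-Trp livers and 161 to 615 CPM in the 6 xenografts, and none of the 8 was at 0 in any group. Markers of erythroid cells stood at 45.1 to 495 CPM in the control livers and at 7.15 to 18.1 CPM in the No-Trp livers, with 2 of their 5 genes at 0 in every group. Among the xenografts, 6 adipocyte markers summed to 11.6 to 67.7 CPM in the controls against 374 to 784 CPM without Trp, and 5 skeletal muscle markers to 1.81 to 17.9 CPM against 27.7 to 56.3 CPM. In liver 101, 12.1% of the reads on genes were on Rn45s, the ribosomal RNA precursor, against 0.261% to 2.22% in the other livers. In bulk tissue, fewer cells of a type and less RNA per cell cannot be told apart.

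In MYC-ON livers, Trp starvation went with more RNA of Acot3, Acot4 and Acot2, while Acot1, the leading member on the control diet, did not rise. Acot3, the peroxisomal long-chain enzyme, was at 17.7, 23.6 and 21.0 CPM in control livers 101, 102 and 103 and at 165.7, 263.0 and 217.1 CPM in No-Trp livers 105, 107 and 108. The lowest No-Trp liver was far above the highest control liver, and the fitted difference was 3.39 ± 0.23 on the log2 scale (SE, n = 3 and 3 mice), or 10.5-fold. Acot4, the peroxisomal dicarboxylic acyl-CoA enzyme, was at 36.1, 32.9 and 32.9 CPM in the controls and at 96.9, 146.7 and 104.6 CPM on the No-Trp diet. These groups did not overlap either, and the log2 difference was 1.79 ± 0.20, or 3.46-fold. Acot2, the mitochondrial enzyme, was at 23.3, 22.8 and 33.0 CPM in the controls and at 54.7, 83.1 and 127 CPM on the No-Trp diet. The groups stood apart, with a wider spread among the No-Trp livers than for Acot4, and the log2 difference was 1.76 ± 0.33, or 3.38-fold.

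**Figure D1:**
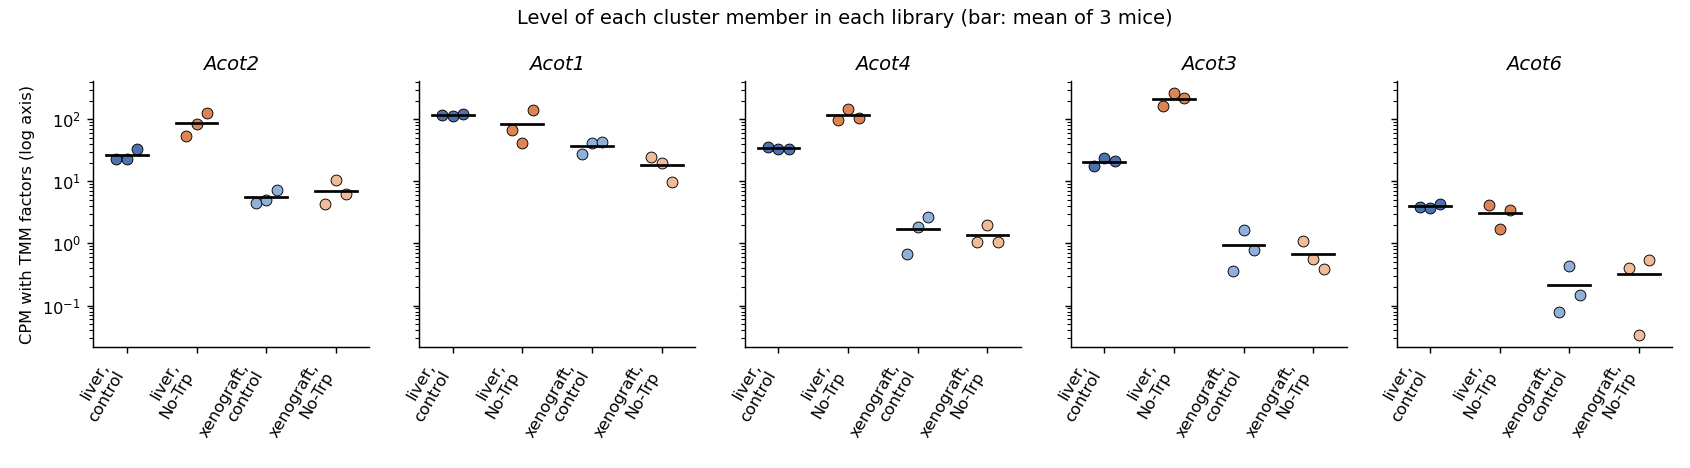
CPM of the 5 tested members of the Acot cluster in each of the 12 libraries (points; log axis) by group, with the mean of 3 mice as a bar, in the order of the genes on the chromosome. Acot2, Acot4 and Acot3 stand higher in all 3 No-Trp livers than in any control liver, and Acot1 and Acot6 overlap between the liver diets. The mean of every member shown is lower in the control xenografts than in the control livers.

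Acot1, the cytosolic enzyme, was the most even tested member among the control livers, at 118.0, 112.2 and 122.8 CPM, and the most uneven among the No-Trp livers, at 66.4, 41.3 and 140.5 CPM. Livers 105 and 107 were below every control liver and liver 108 was above them all, so the groups overlapped and the log2 difference was -0.50 ± 0.41. Without liver 108 it was -1.11, and Acot1 was then called lower. Acot6, the peroxisomal branched-chain enzyme, was at 3.81, 3.78 and 4.31 CPM in the controls and at 4.12, 1.72 and 3.42 CPM on the No-Trp diet, which overlapped (log2 difference -0.35 ± 0.37). Acot5, the peroxisomal medium-chain enzyme, had 3, 0 and 4 reads in the control livers and 4, 0 and 10 reads in the No-Trp livers, too few to enter the test.

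Of the 5 members tested, 3 were called higher and none lower in the livers, where a call needs an adjusted p no higher than 0.05 and a log2 difference of 1 or more. Over all 14122 genes tested, 9.28% were called higher and 7.27% lower, which makes 16.5% in either direction. The same 3 members had all 3 No-Trp livers above all 3 control livers, as did 23.6% of all genes, while 25.0% had them all below and 48.6% stood apart in either direction. The median log2 difference was 1.76 over the 5 tested members and 0 over all genes. The members were picked with the results of this comparison known, so these counts describe them and test nothing. Acot3 was called in each fit that left out 1 liver, with a log2 difference of 3.21 to 3.56. Acot2 (1.41 to 2.01) was not called without control liver 101 or 103, nor Acot4 (1.57 to 1.91) without control liver 103. Without liver 103 the calls over all genes fell from 2337 to 8, and without liver 101 to 294.

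**Figure D2:**
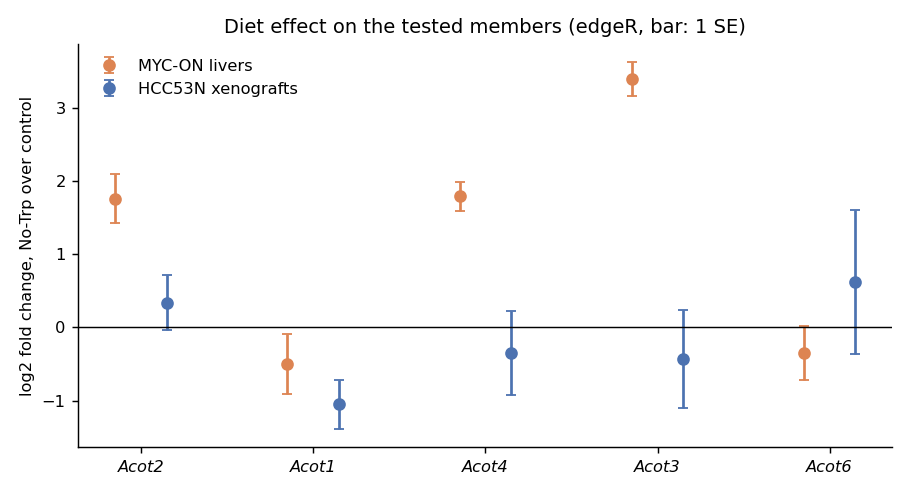
Log2 fold change of No-Trp over control for the 5 tested members in MYC-ON livers and in HCC53N xenografts (points; bars are 1 SE of the edgeR fit, 3 mice per group). Acot2, Acot4 and Acot3 stand at 1.76, 1.79 and 3.39 in the livers, whereas the xenograft values run from -1.05 for Acot1 to 0.62 for Acot6.

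The summed hepatocyte markers were higher in every No-Trp liver than in any control liver, and they differed among the control livers. Control liver 102 had a hepatocyte marker sum of 38500 CPM, above 12500 CPM in liver 101 and 8280 CPM in liver 103, and near the 47300 CPM of No-Trp liver 108. Acot3 in liver 102 was at 23.6 CPM, little above the other control livers, against 217.1 CPM in liver 108. Acot4 was at 32.9 CPM in liver 102 and 104.6 CPM in liver 108, and Acot2 at 22.8 and 127 CPM. Acot1 was close in all 3 control livers over this range of marker levels. Livers 102 and 108 are a single mouse of each diet, so this pair describes those mice only. Alb had the largest part of the sum, with means of 12100 CPM in the control and 52500 CPM in the No-Trp livers. Close sums need not mean close levels of each marker. Between the diets Tat rose from 196 ± 260 to 4160 ± 837 CPM and Ttr from 1210 ± 562 to 4030 ± 1100 CPM, both called. The other hepatocyte markers, Alb included, were not called. The part of the hepatocyte and erythroid marker differences in the diet differences of the members was not tested. The part of tumor content was not tested either.

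**Figure D3:**
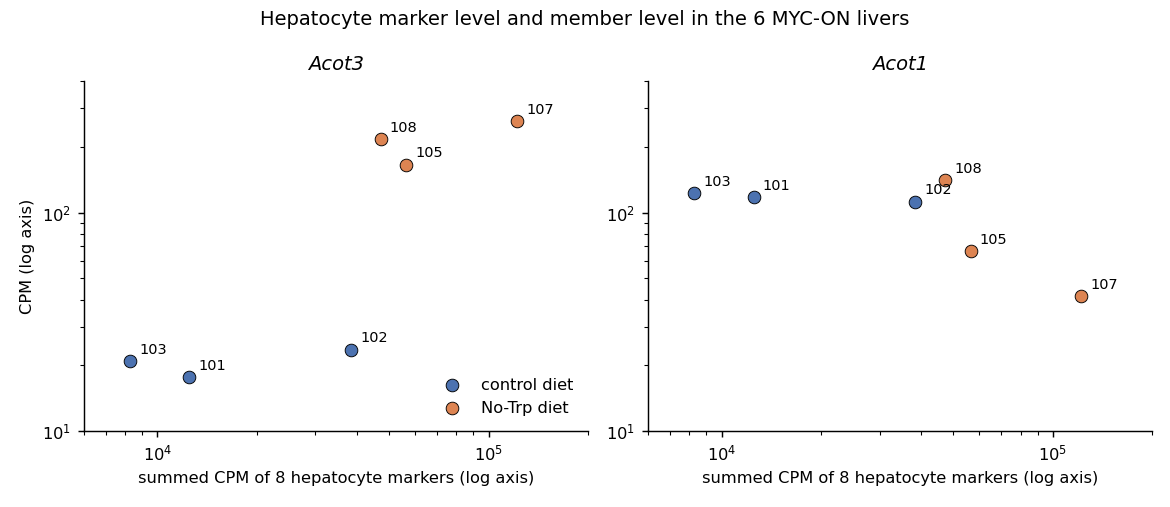
Summed CPM of 8 hepatocyte markers against the CPM of Acot3 (left) and Acot1 (right) in the 6 MYC-ON livers (1 point per mouse, mouse numbers beside the points, both axes log). Control liver 102, with 38500 CPM of markers, has Acot3 at 23.6 CPM beside the other control livers, and No-Trp liver 108, with 47300 CPM of markers, has it at 217.1 CPM. Each is a single mouse, and close sums need not mean close levels of each marker.

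The leading member of the cluster in the livers changed with the diet. Levels were compared between members only as RPKM, the CPM per kilobase of the union of a gene's exons. In the control livers Acot1 led with 30.03 ± 1.36 RPKM (SD, n = 3), followed by Acot2 with 12 ± 2.61 RPKM. Acot3 with 6.03 ± 0.867 RPKM and Acot4 with 5.09 ± 0.282 RPKM came next and overlapped each other, ahead of Acot6 with 0.619 ± 0.0468 RPKM and Acot5 with 0.0668 ± 0.0581 RPKM. In the No-Trp livers Acot3 led with 62.6 ± 14.2 RPKM, ahead of Acot2 with 40.2 ± 16.6 RPKM. These 2 members overlapped between mice, yet Acot3 was above Acot2 within each of the 3 livers. Acot1 with 21.1 ± 13.2 RPKM and Acot4 with 17.4 ± 4.02 RPKM overlapped, and Acot6 (0.481 ± 0.192 RPKM) and Acot5 (0.221 ± 0.263 RPKM) stayed at the bottom.

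As a share of the cluster's summed RPKM, Acot1 made up 58.0%, 55.7% and 53.9% in the control livers and 16.1%, 7.17% and 20.7% in No-Trp livers 105, 107 and 108. Acot3 made up 9.89%, 13.4% and 10.5% in the controls and 45.7%, 52.0% and 36.4% on the No-Trp diet. The shares of both genes stood apart between the diets, in opposite directions. Acot2 held 22.1% ± 3.17 of the cluster in the controls and 27.6% ± 5.10 on the No-Trp diet, and Acot4 9.49% ± 0.976 and 12.6% ± 3.13, which are smaller shifts than those of Acot1 and Acot3. In reads, Acot3 had 0.15, 0.21 and 0.171 of the reads of Acot1 in the control livers and 2.50, 6.36 and 1.55 times as many in the No-Trp livers. The whole cluster summed to 51.95, 51.4 and 58.15 RPKM in the control livers and to 105.4, 147.1 and 173.6 RPKM in the No-Trp livers. With the length of the longest transcript instead of all exons, Acot1 held 64.7% of the cluster in the control livers and 20% in the No-Trp livers, and Acot3 8.70% and 41.4%.

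**Figure D4:**
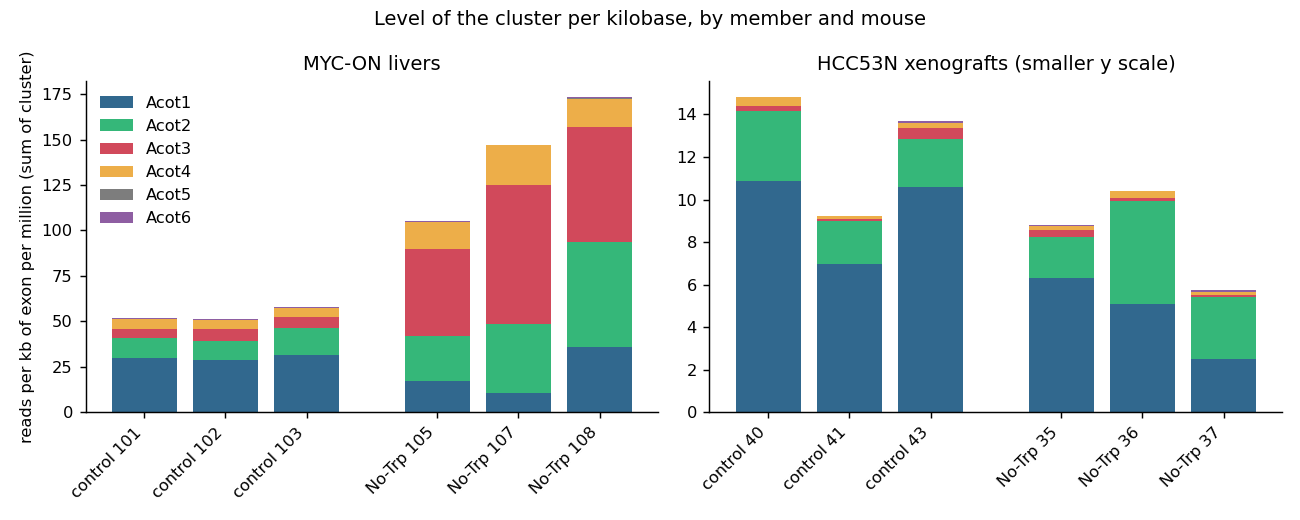
Summed RPKM of the Acot cluster in each mouse, split by member (stacked bars from 0, y scales differ between the panels). Control livers reach 51.4 to 58.15 RPKM, mostly Acot1, and No-Trp livers 105.4 to 173.6 RPKM with Acot3 as the largest share, while the 6 xenografts lie between 5.76 and 14.8 RPKM with mostly Acot1 and Acot2.

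The members moved unequally together. Over the 6 livers the log2 CPM of Acot3 had a Pearson correlation of 0.986 with Acot4 and of 0.924 with Acot2, and Acot2 and Acot4 one of 0.895. Acot1 had correlations of -0.582 with Acot3, -0.659 with Acot4 and -0.304 with Acot2. Acot6 was at 0.753 with Acot1. These livers fall into 2 diet groups and share library totals, and the correlations are given as a description over 6 libraries. Over the 6 xenografts the correlation of Acot3 with Acot4 was 0.49 and that of Acot3 with Acot2 was -0.243, at levels near 1 CPM for Acot3 and Acot4.

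In HCC53N xenografts the liver pattern of the members was not seen. Acot1 was at 42.7, 27.3 and 41.5 CPM in control xenografts 40, 41 and 43 and at 24.7, 19.9 and 9.89 CPM in No-Trp xenografts 35, 36 and 37. All 3 No-Trp xenografts were below all 3 controls, by a small gap between xenografts 41 and 35, and the log2 difference was -1.05 ± 0.33. Acot2 was at 7.21, 4.47 and 4.996 CPM in the controls and at 4.32, 10.6 and 6.32 CPM on the No-Trp diet, and the groups overlapped (log2 difference 0.34 ± 0.38). Acot3 was at 0.785, 0.359 and 1.65 CPM in the controls, from 9 to 27 reads, and at 1.09, 0.567 and 0.382 CPM on the No-Trp diet, from 9 to 30 reads. Acot4 was at 2.697, 0.678 and 1.83 CPM in the controls and at 1.05, 1.97 and 1.06 CPM on the No-Trp diet. Both overlapped, with log2 differences of -0.43 ± 0.67 for Acot3 and -0.35 ± 0.57 for Acot4. At this depth even a diet difference of several of these SEs could go without a call. Acot6 had 2 to 7 reads in the controls and 1 to 13 on the No-Trp diet (log2 difference 0.62 ± 0.98). Acot5 had no reads in any xenograft, and 3 reads would have given 0.1 to 0.183 CPM.

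None of the 5 members tested was called in the xenografts by edgeR, where 0.360% of 14704 genes were called (53 genes, 0.245% higher and 0.116% lower, with 2483 genes at an unadjusted p under 0.05). DESeq2 called Acot1 lower, among 380 genes in all. Xenografts on the No-Trp diet were lower for every mouse, as for Acot1, in 11.8% of all genes tested, and 22.6% stood apart in either direction. The adipocyte and skeletal muscle markers were higher in the No-Trp xenografts, and their part in the values of the members was not tested. Acot1 led the cluster in the control xenografts with 9.48 ± 2.18 RPKM, ahead of Acot2 with 2.53 ± 0.662 RPKM, while Acot3, Acot4 and Acot6 were below 0.5 RPKM in every xenograft. On the No-Trp diet Acot1 (4.63 ± 1.93 RPKM) and Acot2 (3.23 ± 1.47 RPKM) overlapped. The share of Acot1 was 73.4%, 75.6% and 77.4% of the cluster in controls 40, 41 and 43 and 71.6%, 48.9% and 43.8% in No-Trp xenografts 35, 36 and 37, with No-Trp xenograft 35 close to the controls. For Acot2 the mean share was 20.3% ± 3.16 in the controls and 39.7% ± 15.1 on the No-Trp diet.

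The diet difference in the xenografts minus that in the livers was -3.74 ± 0.62 for Acot3, -2.09 ± 0.54 for Acot4, -1.39 ± 0.51 for Acot2, -0.52 ± 0.58 for Acot1 and 0.99 ± 1.0 for Acot6, all on the log2 scale. Of the 5, Acot3 and Acot4 were called, as were 12.7% of 15472 genes (6.70% with a positive and 6.01% with a negative difference). Acot4 was not called in 6 of the 12 fits that left out 1 library, those without control liver 103, No-Trp liver 107, control xenograft 40 or 43 or No-Trp xenograft 35 or 37. Acot2 was called as well by DESeq2, among 2735 genes in all, and without No-Trp xenograft 36, among 1294. With at least 10 counts in every library Acot3 did not enter the test, and Acot4 was the 1 member called, among 1903 genes. On the control diet, all 5 tested members were called lower in the xenografts than in the livers, as were 20.2% of genes (23.3% higher, 43.5% in either direction). The log2 difference was -4.54 ± 0.45 for Acot3, -4.31 ± 0.41 for Acot4, -4.23 ± 0.78 for Acot6, -2.25 ± 0.38 for Acot2 and -1.66 ± 0.42 for Acot1. Acot1 and Acot2 thus had the smallest differences between the xenografts and the MYC-ON livers among the 5 tested members. The models differ in mouse strain, sex of the host, site and tumor cells, and these cannot be told apart.

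The neighbours of the cluster served as a comparison along the chromosome. Within 500 kb of either end, 21 further genes were listed and 20 tested in the livers, with a median log2 difference of -0.01 and a range of -1.65 to 2.38. Entpd5, an endoplasmic reticulum nucleotidase, was higher on the No-Trp diet by 2.38 ± 0.26 (adjusted p = 0.0112), Zfyve1, a protein of the endoplasmic reticulum and Golgi, by 1.92 ± 0.44 (adjusted p = 0.0268) and Aldh6a1, a mitochondrial enzyme of valine breakdown, by 1.88 ± 0.36 (adjusted p = 0.0202). Papln (-1.65 ± 0.28, adjusted p = 0.0181), Dcaf4 (-1.08 ± 0.29, adjusted p = 0.0357) and Riox1 (-1.04 ± 0.30, adjusted p = 0.0427; listed as 2410016O06Rik) fell. The other 14 were not called, and over all 14122 genes tested 9.28% were called higher and 7.27% lower. Dnal1, the next gene after Acot6, was at 0.05 ± 0.35, and Riox1, before Acot2, was among those that fell. None of the 20 was called in the xenografts.

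**Figure D5:**
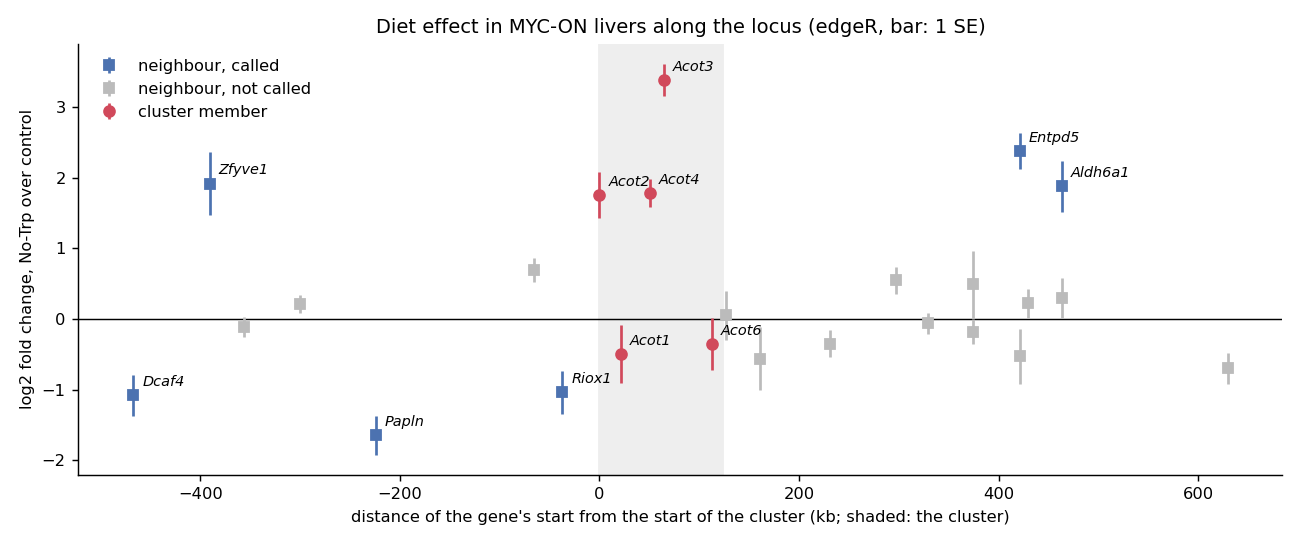
Log2 fold change of No-Trp over control in MYC-ON livers for the 5 tested members (circles) and the 20 tested neighbours (squares) against the distance of each gene's start from the start of the cluster in kb (bars are 1 SE; shaded, the cluster). Acot2, Acot4 and Acot3 lie between 1.76 and 3.39, with Acot1 between them at -0.50, and 6 of the 20 neighbours are called, 3 in each direction.

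Thioesterases outside the cluster were split as well. Of 11 listed genes 9 were tested in the livers, with 2 called higher, 1 lower and a median log2 difference of 0.72. Over all genes tested there, 9.28% were called higher and 7.27% lower. Acot12, the cytosolic acetyl-CoA hydrolase, rose from 55.4 ± 15.7 to 206 ± 65.3 CPM (log2 difference 1.91 ± 0.30, adjusted p = 0.0163). Them4, a mitochondrial thioesterase, rose from 19.0 ± 2.85 to 47.2 ± 1.48 CPM (1.33 ± 0.17, adjusted p = 0.0136). Acot7, a cytosolic enzyme abundant in brain, fell from 78.8 ± 6.68 to 35.3 ± 6.79 CPM (-1.14 ± 0.18, adjusted p = 0.0171). Acot8, the other main peroxisomal thioesterase, was at 24.8 ± 2.48 and 40.6 ± 11.8 CPM (0.73 ± 0.23, adjusted p = 0.0555), and Baat, which conjugates bile acids, at 42.2 ± 50.9 and 250 ± 47.9 CPM (2.59 ± 0.85, adjusted p = 0.0625). None of the 9 was called in the xenografts, and the difference between the models was called for Them4 (-1.23 ± 0.31, adjusted p = 0.0253) and Acot7 (1.05 ± 0.27, adjusted p = 0.0245) and not for Acot12 (-1.79 ± 0.61, adjusted p = 0.066).

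PPARA is the receptor known to act on the cluster, and its gene was higher in the No-Trp livers. Of 15 genes of PPARA and its partners, all tested, 7 were called higher and 0 lower, with a median log2 difference of 1.02. Ppara itself rose from 90.1 ± 41.7 to 424 ± 160 CPM (2.25 ± 0.41, adjusted p = 0.0196), Nr1h4, the bile acid receptor, by 2.02 ± 0.29 (adjusted p = 0.0146) and Ppargc1a, a coactivator, by 1.54 ± 0.36 (adjusted p = 0.028). Of 37 tested PPARA target genes outside the cluster, 26 were called higher and 0 lower, with a median of 1.75. The shares over all genes were 9.28% higher and 7.27% lower. The fatty acid hydroxylases Cyp4a14 (6.95 ± 0.92, adjusted p = 0.0139), Cyp4a31 (6.65 ± 0.44, adjusted p = 0.00279) and Cyp4a10 (5.08 ± 0.98, adjusted p = 0.0216) had the largest rises of that list. Ppara was at 2.01 CPM on both diets in the xenografts, where 0 of 14 tested genes of PPARA and its partners and 2 of 35 tested targets were called. The share over all genes there was 0.360%. Whether PPARA had a part in the diet differences of the members was not tested. The hepatocyte markers were higher in the same No-Trp livers.

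The pathways that make and use acyl-CoAs were counted in the same way in the livers. Over all 14122 genes tested there, 9.28% were called higher and 7.27% lower. Of the genes that make acyl-CoAs, 3 of 20 tested were called higher and 0 lower (median 0.96), and 16 of the 20 differences were positive. Those called were Acsl4 (2.14 ± 0.22, adjusted p = 0.0108), Acsl1 (1.17 ± 0.33, adjusted p = 0.0397), the main long-chain synthetase of liver, and Acsm3 (1.15 ± 0.30, adjusted p = 0.0345). Peroxisomal fatty acid oxidation had 16 of 26 called higher and 0 lower (median 1.44), with Ehhadh, the bifunctional enzyme of the pathway (3.10 ± 0.58, adjusted p = 0.0201), and Pex11a, a factor of peroxisome division (2.90 ± 0.44, adjusted p = 0.0163). Mitochondrial fatty acid oxidation had 10 of 21 called higher and 0 lower (median 0.98), with Slc25a20, the carnitine carrier, at 1.87 ± 0.30 (adjusted p = 0.0171) and Cpt1a, the gate of mitochondrial import, at 1.86 ± 0.42 (adjusted p = 0.0261). Fatty acid omega hydroxylation, which feeds the dicarboxylic substrates of Acot4, had 8 of 15 called higher and 0 lower (median 1.96), with the Cyp4a genes above as its leaders. Of the 15 differences, 12 were positive. Cyp4a12a (-3.12 ± 1.1), Cyp4a12b (-1.55 ± 0.65) and Cyp4f14 (-1.33 ± 1.2) were lower without a call. DESeq2 called 9 of this list higher and 2 lower. Coenzyme A synthesis and breakdown had 7 of 18 called higher and 0 lower (median 0.86), with Vnn3, a pantetheinase, at 2.64 ± 0.75 (adjusted p = 0.0434), Coasy at 1.78 ± 0.23 (adjusted p = 0.0136) and Pank1, the kinase of the first step, at 1.55 ± 0.40 (adjusted p = 0.035). Several genes stand in more than 1 list, and the lists were chosen with results of these livers known.

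The list counts in the livers rested on single mice and, for some lists, on the scaling. Scaled by library totals alone, 4 of 21 genes of mitochondrial oxidation were called higher (median 0.65), 3 of 15 of PPARA and its partners (median 0.69), 1 of 20 of acyl-CoA synthesis (median 0.66) and 2 of 18 of coenzyme A synthesis and breakdown (median 0.53), where 1 was then called lower. Over the 8 lists, 2 to 26 genes were called higher with all 6 livers, 0 to 1 without control liver 103, 0 to 6 without control liver 101 and 1 to 9 without No-Trp liver 105, while the medians of the lists stayed positive, at 0.5 to 1.78, 0.78 to 1.78 and 0.85 to 2.18. In the xenografts, Acsl1 rose by 1.67 ± 0.21 (adjusted p = 0.0247) and was the 1 gene of 18 called in its list. Cidec, a lipid droplet protein abundant in fat, rose by 4.86 ± 0.46 (adjusted p = 0.0137) and was the other called PPARA target. Abcd2, a peroxisomal fatty acid transporter, rose by 3.03 ± 0.44 (adjusted p = 0.0436) and was the 1 gene of 26 called in peroxisomal oxidation. Acsl1 was not called without control xenograft 41 or 43, without No-Trp xenograft 37 or with the resubmission mark as a covariate, nor was Abcd2, which was also lost without No-Trp xenograft 35, with at least 10 counts in every library and in a fit over all libraries. Cidec was not called without control xenograft 41 or with that covariate. The adipocyte markers were higher in the same xenografts, and their part in these rises was not tested. In the xenografts 0 genes were called in the lists of mitochondrial oxidation (21 tested), omega hydroxylation (10 tested) and coenzyme A (17 tested).

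The genes whose pattern was most like that of the members were found by the Pearson correlation of log2 CPM over the 12 libraries after the mean of each model was subtracted. With the mean of the 5 tested members the closest were Wdr93 (0.936), Tmem203 (0.93), Ttpal (0.927), Fmo5 (0.925) and Zfp174 (0.923), and Ppara was at 0.825. The members differed in this. Ppara was at 0.923 with Acot3, 0.837 with Acot4 and 0.593 with Acot2, and at -0.218 with Acot1 and -0.0681 with Acot6. The closest genes of Acot3 were Cyp2c38 (0.978) and Fmo5 (0.974), those of Acot4 Slc25a39 (0.953) and Mmadhc (0.938), those of Acot2 Tmem128 (0.94) and Slc25a33 (0.932), and those of Acot1 Ntan1 (0.948) and Pilrb2 (0.935). Fmo5 was close to the mean profile as well as to Acot3. All points share the same 12 libraries and the correlations are a description. The share of all genes with correlations as high as those of Ppara was not counted.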

How the data were processed

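RNA-seq of poly(A) RNA was available as read counts per gene for 12 mice, 1 library each. The deposited counts were made by the authors by trimming with Trim Galore, alignment to mm10 with STAR 2.7.2b and counting with HTSeq, without normalization. Strand and overlap settings were not given in the sources used here. Between 24.7% and 39.4% of the reads of a library were not on a gene or not counted and were left out. The test of diet in each model was that of edgeR 4.0.16 (R 4.3.3; TMM, filterByExpr, robust glmQLFit, glmQLFTest, two-sided, Benjamini-Hochberg over all genes tested). The difference between models and the comparison of models came from a fit over all 12 libraries. A call needed an adjusted p no higher than 0.05 and a log2 difference of 1 or more in size. SE is the log2 fold change divided by the square root of F. CPM used TMM factors over the 12 libraries. The script was tested on simulated data. The members and the lists were chosen with earlier results of these data known, so the members get no p-value. Named list genes are the up to 3 largest rises and falls among genes called in the livers with a mean normalized count of 100 or more in the group where they are higher. Some further list members are given beside them, chosen after their values were seen (Acot8, Baat, Cidec, Abcd2, Cyp4a12a, Cyp4a12b and Cyp4f14). Neighbours are those within 500 kb, of which called ones are named, with Dnal1 chosen after its value was seen, and likeness genes the 5 closest to the mean of the tested members. Alternatives were DESeq2 1.42.0, other scalings and filters, the resubmission mark of 4 libraries (livers 101 and 108, xenografts 41 and 43) as a covariate, a fit over all libraries, each library left out, and, added after seeing the data, Rn45s left out. Counting error is largest, relative to the level, for Acot5 and Acot6 and, in the xenografts, for Acot3 and Acot4. The diet of xenograft 40, whose table is named in another pattern, was taken from its labels. Some named results are not reported here. The genome and protein tables needed to print proteins were not used here.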

Additional observations from a re-analysis of the deposited data

Results flagged for a closer look

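For 15 of the 25 genes outside the cluster that the lists or the neighbourhood name, the diet difference itself differed between the models in the edgeR interaction over 12 libraries (adjusted p no higher than 0.05 and a log2 value of 1 or more in size), with 13 of the 15 values negative, so that the diet difference was more negative in the xenografts than in the livers. The xenograft minus liver difference (log2) was -7.66 for Cyp4a31, -7.36 for Cyp4a14, -5.45 for Cyp4a10, -2.85 for Ehhadh, -2.58 for Pex11a, -2.33 for Zfyve1, -2.32 for Ppargc1a, -2.29 for Acsl4, -1.97 for Slc25a20, -1.93 for Coasy, -1.63 for Entpd5, -1.47 for Pank1 and -1.23 for Them4. It was 1.05 for Acot7 and 2.95 for Papln. These 25 genes were named by rule because they were called in the livers, and the liver difference is part of these values. The count and the signs thus follow in part from that choice and test nothing. Over all 15472 genes tested, 12.7% were called. Cyp4a31 stood at 0.137 and 0.0606 CPM in the control and No-Trp xenografts and was not tested within the xenografts. Acot3 and Acot4 had differences in the same direction as the 13, and since the members were chosen with these results known, they are given in the report as a description.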

How the results depend on the processing

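Every diet difference called in the livers for Acot2, Acot3 and Acot4 kept its sign under each alternative run, and no called value of a member or other named gene changed sign. With library totals in place of TMM the median log2 difference of all genes moved to -0.30 in the livers, 0.11 in the xenografts, 0.41 for the difference between models and 0.17 between models on the control diet. Acot3 then stood at 3.07 and Acot4 at 1.47 in the livers, where 732 genes were called higher, and the difference between models had 1825 genes higher and 437 lower. DESeq2 gave 1473 lower for that difference. In the xenografts, genes called higher and lower numbered 36 and 17, against 250 and 130 with DESeq2, 56 and 26 with RLE factors, 60 and 11 with library totals, 73 and 45 without the filter, 10 and 5 with at least 10 counts in every library, 3 and 1 with the resubmission covariate, 18 and 5 in a fit over all libraries and 57 and 28 without Rn45s. The causes were not tested. Leaving out 1 library gave 7 to 1959 higher and 1 to 1248 lower in the livers, 7 to 35 and 2 to 43 in the xenografts, and 467 to 1195 and 449 to 1386 for the difference between models. In that difference Acot1 ranged from -0.83 to 0.09 (0.09 without No-Trp liver 108) and Acot3 from -4.24 to -3.08 (-3.08 without control xenograft 43). Between models on the control diet Acot3 ranged from -5.20 to -4.11 (-5.20 without control xenograft 43). With the longest transcript as length, Acot1 held 64.7%, Acot2 17.1%, Acot3 8.70%, Acot4 7.88% and Acot6 1.57% of the cluster in control livers, Acot6 0.594% in No-Trp livers, and Acot1 82.0% and Acot2 14.7% in control xenografts. Of 303 values of other named genes under settings that kept all libraries, 11 were no longer called, and of 330 with 1 library left out, 94. No paired analysis was possible because the groups share no mouse numbers. In the xenografts Acot2, Acot3 and Acot4 changed sign between single libraries left out, and Acot3 and Acot4 had at most 59 reads per library there.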
